A study of Sus scrofa with 6 samples.

Results

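Securin, separase and the cohesin ring were examined as 10 genes of pig embryos at the 4-cell stage, taken by gene symbol from a table of 30376 genes. They were PTTG1 (securin), ESPL1 (separase), the ring subunits SMC1A, SMC3, RAD21, STAG1 and STAG2, and the ring's regulators WAPL, PDS5A and PDS5B. All 10 had a row in the table and all 10 had enough reads to be tested, among 16056 tested genes. The genes were grouped by function, with earlier results of these data known, and PTTG1 in particular was known to be lower in every heated library. The temperature difference of PTTG1 is therefore given as a description, without a test.

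The series asks what heat does to zygotic genome activation, when the embryo starts its own transcription. The embryos had developed from oocytes activated by electric pulses, without sperm. Control embryos, labelled WT, were kept at 38.5 °C, and the high-temperature embryos, which carry HT as their genotype label but no stated genetic change, were kept at 41.5 °C. Both groups grew in PZM-5 medium with BSA for 4 days, and each gave 3 libraries of poly(A) RNA, prepared by SMART-Seq v4 without strand information. The protocol names about 300 4-cell samples for library construction, without saying whether that number went into each library. Whether replicates came from separate cultures is not stated, so each p-value covers the scatter of these libraries alone, and that scatter may be technical. In such pooled material, fewer embryos with a transcript and less of it per embryo cannot be told apart.

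Cohesin is a ring that holds the sister chromatids together from DNA replication until anaphase. SMC1A and SMC3 form its arms, RAD21 closes it, and either STAG1 or STAG2 binds RAD21. WAPL, together with PDS5A or PDS5B, opens the ring and frees it from chromatin before anaphase. Separase is the protease that cuts RAD21 at anaphase, and securin binds and blocks separase until the anaphase-promoting complex marks securin for destruction. In meiosis SMC1B, REC8 and STAG3 stand in for SMC1A, RAD21 and the mitotic STAG subunits, and the oocyte stores transcripts that the first cleavages of the embryo use.

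The libraries held 28114005 to 30079385 reads assigned to genes. CPM values, counts scaled to a common library size, use totals scaled by TMM, whose factor was 0.865 in control replicate 1 and 0.9996 to 1.09 in the other 5 libraries. The 9 oocyte and early embryo markers all had reads and summed to 2897 to 3733 CPM in controls and 2704 to 2941 CPM in heated libraries. Of the cumulus and granulosa cell markers, 7 of 12 in the table had reads, FSHR, AMH, INHA, CYP11A1 and FOXL2 were at 0, and the list summed to 14.4 to 15.2 CPM in controls and 16.4 to 17.0 CPM in heated libraries. Stromal and blood markers summed to 11.7 to 13.7 CPM and 10.5 to 12.1 CPM. Genes of the mitochondrial genome took 21.5% to 24.2% of the counts in controls and 24.5% to 27.3% in heated libraries. The part of the cumulus markers and of the mitochondrial share in the differences below was not tested.

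Securin was by far the most abundant transcript of the 10, separase the scarcest. On the TPM scale, which corrects for transcript length, PTTG1 averaged 11581 TPM over the 6 libraries (8123 to 15145) and ESPL1 1.05 TPM (0.551 to 1.28). PTTG1 stood at rank 10 of all genes by TPM in each control library and at ranks 19, 15 and 13 in the heated libraries. It took 0.756%, 0.882% and 0.824% of the counts in control replicates 1, 2 and 3 and 0.495%, 0.576% and 0.584% in the heated ones. Among the ring genes SMC3 averaged 139 TPM, STAG2 53.6, RAD21 50.4, WAPL 41.5, PDS5A 20.9, STAG1 9.39, PDS5B 9.08 and SMC1A 4.54 TPM. Neighbours in this order did not overlap over the 6 libraries, except STAG2 with RAD21, RAD21 with WAPL, and STAG1 with PDS5B. STAG2 was above RAD21 in 4 of 6 libraries, RAD21 above WAPL in 4, and STAG1 above PDS5B in 3. PDS5A is annotated as a long noncoding RNA in the table, with no protein identifier, so its TPM rests on the length of that gene model.

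**Figure D1:**
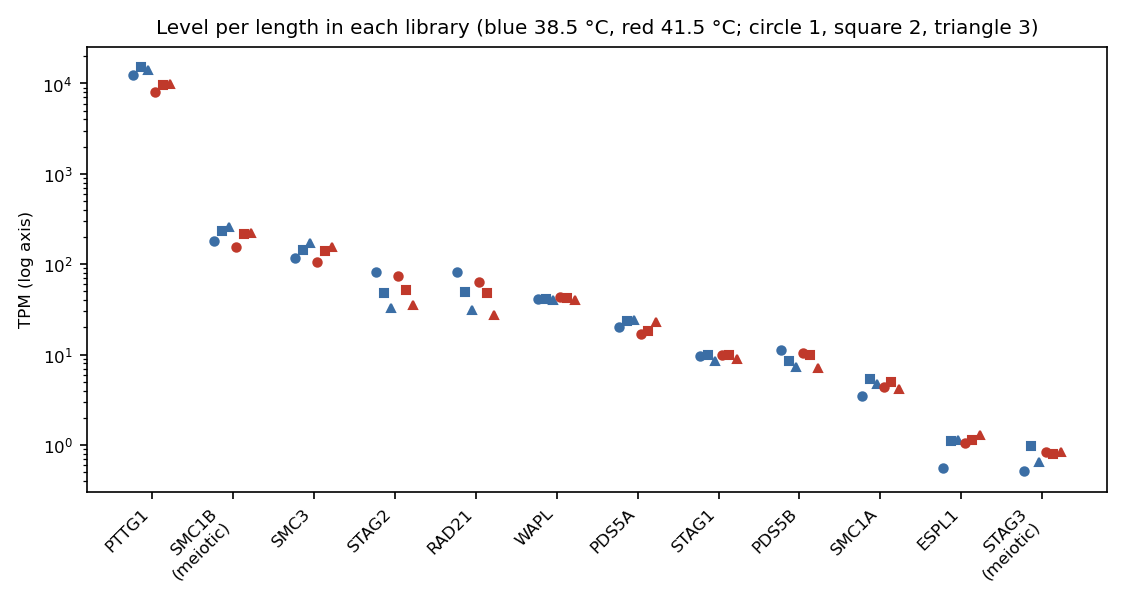
TPM (log axis) of the 10 genes and of the meiotic subunits SMC1B and STAG3 in each library, with blue for 38.5 °C, red for 41.5 °C and the symbol for the replicate number. PTTG1 lies at 8123 TPM or more in every library, SMC1B lies above SMC3, and SMC1A is near 5 TPM.

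The arm that pairs with SMC3 was represented mainly by the meiotic paralogue. SMC1B was at 156 to 256 TPM, between 35.6 and 54.0 times the level of SMC1A in the same library. The SMC3 to SMC1B ratio, looked at after the values were seen, lay between 0.614 and 0.698 in all 6 libraries. The other meiotic subunits were scarce. STAG3 was at 0.509 to 0.9755 TPM, REC8 had 0 to 9 reads per library, and RAD21L1, a further meiotic relative of RAD21, had 0 reads in 173662289, which allows up to 0.0173 CPM of the summed reads (counting error only). By level, RAD21 led the ring-closing transcripts and STAG2 the STAG transcripts, while SMC1B led the SMC1 pair.

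PTTG1 was lower in all 3 heated libraries than in any control library. Controls 1, 2 and 3 held 8743, 8828 and 7899.5 CPM, and the heated libraries 4895, 5737.5 and 5366 CPM. The lowest control library lay well above the highest heated library, and the groups did not overlap on the TPM or FPKM scale either. PTTG1 was chosen for this separation, so its return on other scales of the same libraries adds no support. By CPM, 650 of 16056 tested genes (4.05%) separated in this direction. The means were 8490.2 ± 513 CPM (SD, n = 3) and 5333 ± 422 CPM (SD, n = 3), 1.59-fold lower at high temperature. The log2 fold change was -0.67 (standard error 0.16). Securin spanned 1.80-fold from the lowest to the highest library, and its pooled SD of log2 CPM within groups was 0.10. PTTG1 (chromosome 16, 63104698 to 63112382, Sscrofa11.1) overlaps no other gene in the annotation.

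Separase values overlapped between the temperatures. ESPL1 (chromosome 5, 18486969 to 18509913) was at 3.35, 5.65 and 5.48 CPM in control replicates 1, 2 and 3 and at 5.44, 5.87 and 5.95 CPM in the heated ones. Control replicate 1 was the low library and the other 5 lay close together, so the groups overlapped. These values rest on 87 to 182 reads per library. The log2 fold change was 0.25 (95% interval -0.37 to 0.87, edgeR adjusted p = 0.99992), and without control replicate 1 it was 0.05. On the TPM scale the securin to separase ratio was 22740 in control replicate 1, 13530 and 12560 in the other controls, and 7702, 8343 and 7718 in the heated libraries. This ratio contains the PTTG1 values that chose the gene and is given without a test.

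**Figure D2:**
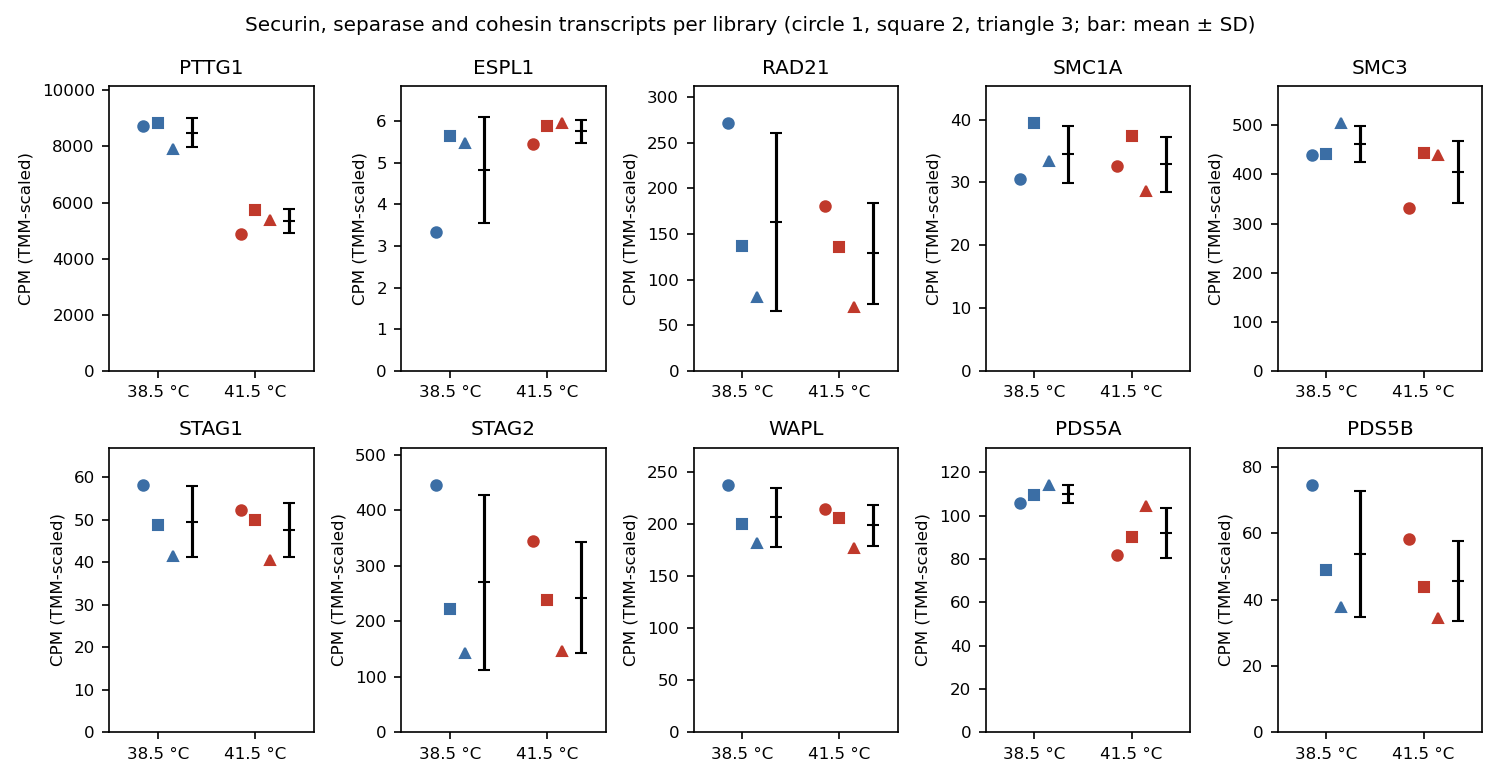
TMM-scaled CPM of each gene in each library, with the symbol for the replicate number and black bars for mean ± SD (n = 3). PTTG1 separates by temperature, PDS5A does so by a small gap, and in the other 8 panels the groups overlap.

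Of the other 9 genes none passed the edgeR quasi-likelihood test at an adjusted p of 0.05, and none had an unadjusted p below 0.05. Over all 16056 genes the share called was 0%, with 297 genes (1.85%) at an unadjusted p below 0.05, while DESeq2 called 5 of 24749 genes (0.0202%), none of them among the 9. The log2 fold change was below 0 in 8 of the 9, against 52.5% of all tested genes, with a median of -0.155 against -0.02. That direction depended on the scaling and on single libraries. With the library total as the sole scaling 5 of 9 were below 0, against 38.4% of all genes. On the log2(TPM + 1) scale 3 of 9 were, against 42.2%. Without control replicate 1 it was 3 of 9, against 48.8%, and without high-temperature replicate 3 it was 4 of 9, against 49.7%.

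**Figure D3:**
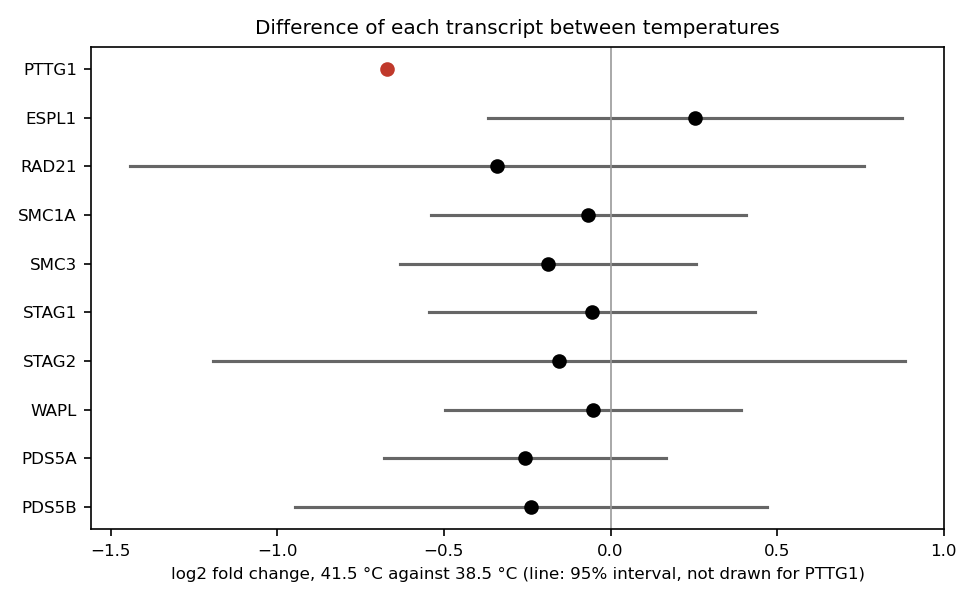
Log2 fold change of each gene, 41.5 °C against 38.5 °C, with 95% intervals for the 9 genes other than PTTG1. All 9 intervals include 0, and those of RAD21 and STAG2 are the widest.

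In the core of the ring, SMC3 was at 440.3, 441 and 504 CPM in control replicates 1, 2 and 3 and at 332, 443 and 440.2 CPM in the heated ones. High-temperature replicate 1 was the low library, and the groups overlapped. The log2 fold change of SMC3 was -0.19 (95% interval -0.63 to 0.26), and without high-temperature replicate 1 it was -0.06. SMC1A was at 28.6 to 39.4 CPM over all libraries, with means of 34.5 ± 4.55 CPM in controls and 32.9 ± 4.41 CPM in heated libraries (SD, n = 3). SMC1A (log2 fold change -0.07, 95% interval -0.54 to 0.41) and SMC3 had intervals that left out a 2-fold difference in either direction.

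RAD21, the subunit that separase cuts, varied more between libraries of a group than between temperatures. It was at 271, 136 and 81.4 CPM in control replicates 1, 2 and 3 and at 181, 135 and 70.2 CPM in the heated ones, a 3.87-fold range. The library numbered 1 was the high one and the library numbered 3 the low one at both temperatures, and the groups overlapped almost fully. The log2 fold change of -0.34 had a 95% interval from -1.44 to 0.76, and it was 0.24 without control replicate 1 and -0.67 without control replicate 3. Its pooled SD of log2 CPM within groups was 0.79, and 6.09% of the genes at 10 CPM or more had one as large.

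STAG2 showed the same library pattern. It was at 447, 222 and 143 CPM in control replicates 1, 2 and 3 and at 345, 238 and 146 CPM in the heated ones. The libraries numbered 1 were again high and those numbered 3 low, with a log2 fold change of -0.155 (95% interval -1.19 to 0.88) between temperatures. Without control replicate 1 the value was 0.41. STAG1, the alternative subunit, was steadier, at 40.5 to 58.2 CPM, with a log2 fold change of -0.06 (95% interval -0.55 to 0.43). Both lie on long gene spans (STAG1 on chromosome 13, 77321872 to 77863533; STAG2 on chromosome X, 101476117 to 101617405), and the gene that overlaps STAG1, SLC35G2, had 4 to 14 reads per library.

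STAG2 exceeded STAG1 per length in every library. The STAG2 to STAG1 ratio on the TPM scale was 8.44, 4.93 and 3.86 in control replicates 1, 2 and 3 and 7.43, 5.24 and 3.97 in the heated ones. The ratio thus varied within a temperature while its group means nearly coincided, at 5.74 ± 2.40 and 5.55 ± 1.75 (SD, n = 3; exact permutation test on log2 ratios, two-sided p = 1, adjusted p = 1 over the 2 ratios tested, where 3 against 3 libraries allow no p below 0.1). STAG2 stayed close to RAD21 instead: their ratio, chosen after the values were seen, was 0.9748 to 1.05 in controls and 1.06 to 1.27 in heated libraries, although each gene spanned more than 3-fold. The SMC3 to RAD21 ratio was 1.445 to 5.515 in controls and 1.64 to 5.59 in heated libraries.

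WAPL, which opens the ring, was at 177 to 238 CPM, with means of 206 ± 28.6 CPM in controls and 199 ± 19.7 CPM in heated libraries (SD, n = 3) and a log2 fold change of -0.05 (95% interval -0.50 to 0.39). PDS5A was at 106, 109.6 and 114 CPM in control replicates 1, 2 and 3 and at 81.7, 90.1 and 104 CPM in the heated ones. Every heated library lay below every control library, by a gap of under 2 CPM, and on the TPM and FPKM scales the groups overlapped. Such separation in the lower direction was found in 650 of 16056 genes (4.05%, and 7.71% in either direction), and PDS5A was the sole one of the 9 to show it. Its log2 fold change was -0.26 (95% interval -0.68 to 0.17, edgeR adjusted p = 0.99992), between -0.33 and -0.16 under the alternatives tried.

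PDS5B was at 74.7, 48.9 and 37.7 CPM in control replicates 1, 2 and 3 and at 58.3, 43.8 and 34.5 CPM in the heated ones, with the order of RAD21 and STAG2. Its log2 fold change was -0.24 (95% interval -0.95 to 0.47), and 0.07 without control replicate 1. The PDS5A to PDS5B ratio on the TPM scale was 1.77, 2.80 and 3.32 in controls and 1.62, 1.83 and 3.17 in heated libraries. PDS5A was above PDS5B in all 6 libraries, and the ratios of the temperatures overlapped, with a log2 difference of -0.27 on the TPM scale and -0.048 on the CPM scale (exact permutation test on log2 ratios, two-sided p = 0.6, adjusted p = 1 over the 2 ratios).

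By CPM, 5 of the 10 genes had the same order of libraries at both temperatures: RAD21, STAG2, PDS5B, STAG1 and WAPL. In these the library numbered 1 was above that numbered 2, and that above number 3. PDS5A had the opposite order in both groups. Over all tested genes 20.0% had the first order by CPM and 16.9% the opposite one, so this pattern was common in the table. The order depended on the scale. By TPM, RAD21, STAG2 and PDS5B kept the first order. STAG1 lost it, at 9.61, 9.78 and 8.42 TPM in control replicates 1, 2 and 3, and so did WAPL, at 41.4, 41.6 and 39.8 TPM. SMC3 and ESPL1 had the opposite order by TPM in both groups, as did PDS5A. Replicate numbers carry no stated meaning, and what the libraries of a number share is not given in the labels. The TMM factor also differed between these libraries (0.865, 0.9996 and 1.04 in control replicates 1, 2 and 3 and 1.01, 1.005 and 1.09 in the heated ones), and its part in the pattern was not tested.

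**Figure D4:**
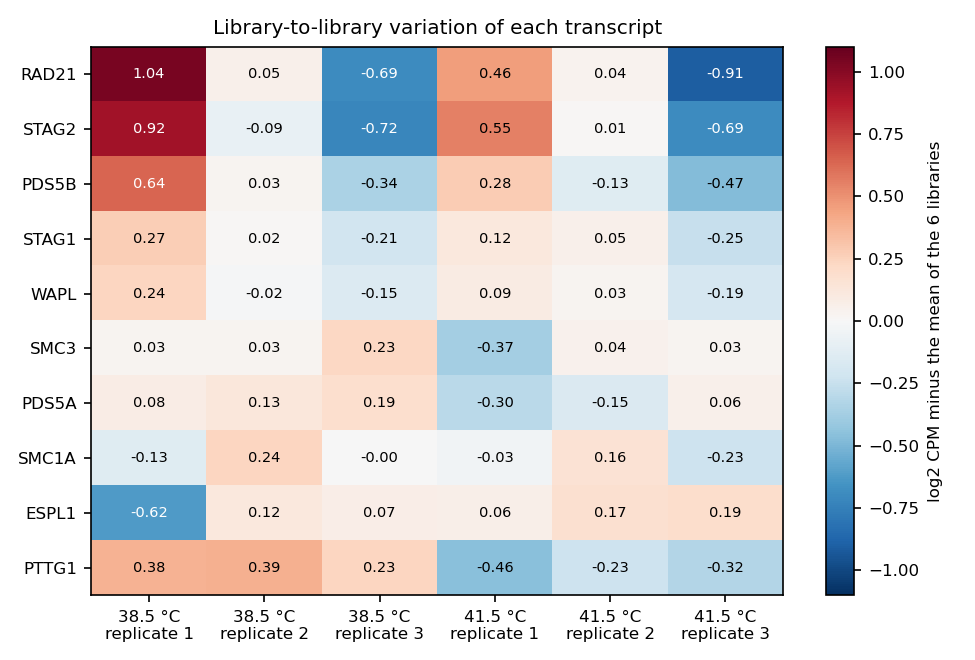
Log2 CPM of each gene minus its mean over the 6 libraries (colour and printed value), with libraries in columns. RAD21, STAG2 and PDS5B are high in replicate 1 and low in replicate 3 at both temperatures, and PTTG1 is above its mean in the controls and below it in the heated libraries.

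The genes that load, acetylate and protect cohesin showed no called difference. Of 15 genes tested 6 were higher, 9 lower and 0 passed the edgeR test (0% of all genes), with a median log2 fold change of -0.03 against -0.02 over all genes. ESCO2, which acetylates SMC3 to lock the ring on the sisters, was at 2207 ± 236 CPM in controls and 1836 ± 442 CPM in heated libraries (SD, n = 3), with a log2 fold change of -0.27 (95% interval -0.78 to 0.25), and -0.083 without high-temperature replicate 1. SGO2, a shugoshin that shields centromeric cohesin, was at 541 ± 115 and 423 ± 47.1 CPM, with a log2 fold change of -0.36 (-0.85 to 0.13), and -0.17 without control replicate 1. PPP2R1A, a scaffold subunit of the phosphatase that shugoshin recruits, was higher in all 3 heated libraries, at 9.42 to 10.4 CPM against 3.96 to 9.20 CPM. That separation, found in 588 of 16056 genes (3.66%) in this direction, also held on the TPM and FPKM scales, while the log2 fold change was 0.44 (-0.32 to 1.20) and 0.15 without control replicate 1.

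Of the 5 meiotic cohesin genes 3 were tested, with 2 higher, 1 lower and 0 past the test. SMC1B was at 679 ± 43.4 CPM in controls and 571 ± 91.0 CPM in heated libraries (SD, n = 3), with a log2 fold change of -0.25 (95% interval -0.69 to 0.19), and -0.13 without high-temperature replicate 1. MEIKIN, which protects centromeric cohesin in the first meiotic division, was at 6.69 ± 0.482 and 7.10 ± 1.75 CPM. FAM118A overlaps SMC1B in the annotation but had 245 to 340 reads per library, against 13692 to 21806 for SMC1B.

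Condensin, the related ring complex that compacts mitotic chromosomes, and the SMC5/6 complex had 12 of 14 tested genes lower, 2 higher and 0 past the edgeR test, with a median log2 fold change of -0.15. Over all tested genes 52.5% were lower and the median was -0.02. The median of the list was -0.02 on the log2(TPM + 1) scale, against 0.04 over all genes on that scale. Without control replicate 3 it was -0.003, against 1.5e-05 over all genes. SMC2, an arm of condensin, was at 540.1 to 632 CPM in controls and 422 to 532 CPM in heated libraries, without overlap (log2 fold change -0.25, 95% interval -0.67 to 0.17). NCAPG, a further condensin subunit, was at 133 to 149.99 CPM and 121 to 132 CPM, also without overlap (-0.13, -0.53 to 0.27). These were 2 of 14 genes, where 4.05% of all tested genes separated in this direction. On the TPM scale both genes overlapped between the temperatures. LCORL, which overlaps NCAPG, had 1051 to 1522 reads per library, so reads of these genes may have been shared. SMC4, the other arm, was at 348 ± 51.1 and 338 ± 43.0 CPM (SD, n = 3), and its value is uncertain, since TRIM59, which overlaps it, had 15986 to 27066 reads per library against 8227 to 12273 for SMC4.

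The machinery that destroys securin or otherwise restrains separase had 8 of 22 tested genes higher, 14 lower and 0 past the edgeR test, with a median log2 fold change of -0.06, against 52.5% lower and a median of -0.02 over all tested genes. In 4 of the 22 the groups did not overlap in CPM, 2 lower (4.05% of all genes) and 2 higher (3.66%). CCNB1, cyclin B1, which with its kinase CDK1 can also inhibit separase and is destroyed together with securin, was lower in every heated library. It was at 602, 697 and 653 CPM in control replicates 1, 2 and 3 and at 486, 489.6 and 519 CPM in the heated ones. CCNB1 had a log2 fold change of -0.39 (95% interval -0.77 to 0.00023), and the groups overlapped on the TPM scale. CDK1 had 1302, 569 and 383 CPM in control replicates 1, 2 and 3 against 716, 597 and 311 CPM in the heated ones, in the library order of RAD21 and STAG2. CDC20, which directs the anaphase-promoting complex to securin at anaphase, was at 16.2 to 16.9 CPM in controls and 17.0 to 25.2 CPM in heated libraries, without overlap in CPM but with overlap in TPM. FZR1, which takes over from CDC20 at mitotic exit, was at 1.19 to 1.93 and 2.09 to 2.43 CPM and CDC16, a subunit of the complex, at 23.2 to 29.1 and 20.5 to 22.3 CPM. FZR1 was also without overlap on the TPM scale and CDC16 was not.

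**Figure D5:**
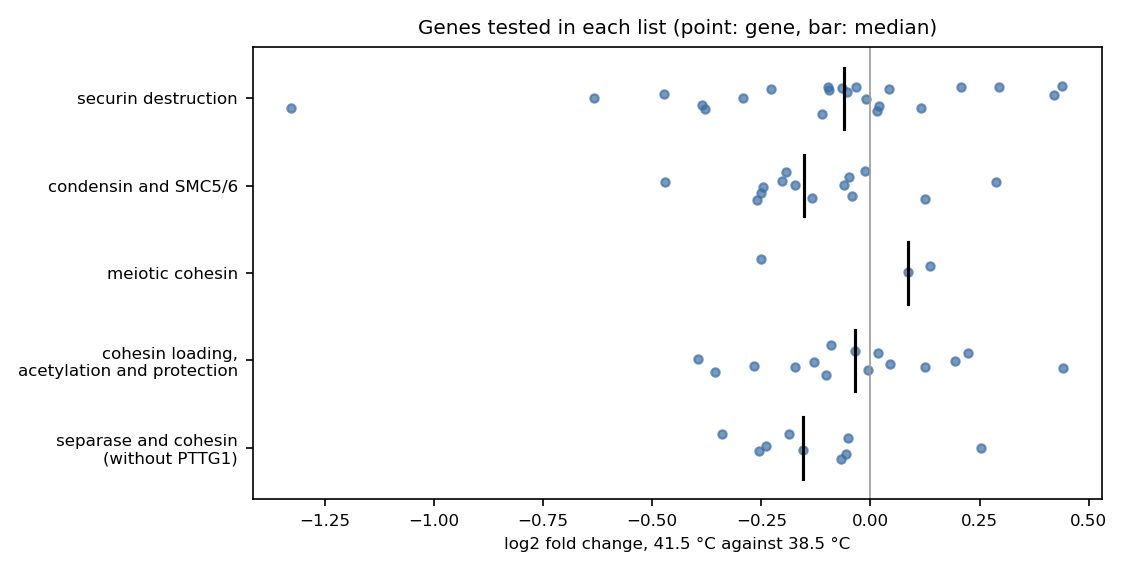
Log2 fold change, 41.5 °C against 38.5 °C, of each tested gene in 4 pathway lists and of the 9 genes other than PTTG1 (points), with the median of each group (bar). The medians lie between -0.155 and 0.09, and no gene passed the test.

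The transcripts whose library profile was most like that of PTTG1 were PPIA, NDUFB1, LOC110260131, NDUFA4 and WDR76. Likeness was measured as the root mean square difference of log2 CPM, centred over the 6 libraries, among 6295 genes at 10 CPM or more. It was 0.08 for PPIA, 0.09 for NDUFB1 and LOC110260131, 0.11 for NDUFA4 and 0.12 for WDR76, against a median of 0.42 over the genes compared and 0.35 for a flat profile. PPIA, the peptidyl-prolyl isomerase cyclophilin A, was at 2014 to 2231 CPM in controls and 1350.4 to 1580 CPM in heated libraries. LOC110260131, a long noncoding RNA that averaged 13655 TPM over the 6 libraries, was at 7503.5 to 7784 CPM in controls and 4157.5 to 5191 CPM in heated libraries. NDUFB1 and NDUFA4, subunits of the respiratory chain, were at 31.3 to 41.4 and 139 to 179 CPM in controls, against 19.1 to 24.5 and 83.8 to 114 CPM in heated libraries. WDR76, among the genes that DESeq2 called, was at 159 to 187 CPM in controls and 93.1 to 99.45 CPM in heated libraries. In all 5 the temperatures did not overlap, which their choice by likeness to PTTG1 makes likely, and no other gene of the cohesin, separase or pathway lists was among them.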

How the data were processed

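The authors' table gives raw read counts for every gene, per its header. It also holds FPKM (scaled by gene length and depth) and TPM (scaled to a common total) that the authors computed. Tools listed in the submitters' processing notes, with no role or order, are HISAT2 2.1.0, StringTie 2.1.3b, Trimmomatic 0.38, Bowtie2 and HISAT, on build Sscrofa11.1. No source used here says how reads shared by overlapping genes were assigned. The FPKM of each sample's own table equalled its column in the series table within 1e-05 for 99.2% to 99.3% of genes above 0. Genes without a symbol took 0.527% to 0.658% of the counts and were kept.

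The counts went into edgeR 4.0.16 under R 4.3.3 (quasi-likelihood, TMM scaling, default expression filter, group as the single term) with Benjamini-Hochberg adjustment over all 16056 genes at 0.05. Alternatives were DESeq2 1.42.0, limma 3.58.1 on log2(TPM + 1) and log2(FPKM + 1 or 0.1) for genes averaging 1 or more, other scalings and filters, the replicate number as a block and each library left out. Ratios were tested by exact permutation. Gene positions were looked up by Entrez ID in RefSeq's list for build Sscrofa11.1. The genes and lists were chosen with earlier results of these data known. From each list the text names the 2 genes of highest mean CPM, those past the threshold and those whose groups did not overlap in CPM. ANAPC5 and CTCF overlapped in CPM but were lower without overlap on the TPM scale, ANAPC5 also on the FPKM scale. Other genes were named after their values were seen.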

Additional observations from a re-analysis of the deposited data

How the results depend on the processing

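The log2 fold change of PTTG1 was -0.73 to -0.61 when 1 library was left out. It was -0.57 with the library total alone and -0.60 on the log2(TPM + 1) and log2(FPKM + 1) scales. The direction is fixed by the choice of this gene. Of the other 9 genes 0 were called under the 16 alternatives. Over all genes edgeR called 0 genes, 3 with the replicate number as a block (LSMEM2, MOGAT1 and WISP3), 1 with no filter on low counts (WISP3) and 0 with each library left out. DESeq2 called 5 (LOC110262067, LSMEM2, MOGAT1, WDR76 and WISP3). Deviations from the group mean correlated at 0.52, 0.01 and 0.59 between libraries numbered 1, 2 and 3. Between control replicate 1 and high-temperature replicate 3 the value was -0.57, and between control replicate 3 and high-temperature replicate 1 it was -0.52. These negative values follow in part from the positive ones, because the deviations of a group sum to 0 for each gene. By the positive values, libraries numbered 1 shared variation across the temperatures, and so did those numbered 3. What a number stands for is not stated, and the main fit did not pair the libraries. The intervals above therefore include that shared variation. Each library correlated best with its own number except both numbered 2. With the replicate block the log2 fold change was -0.67 for PTTG1 and the lowest adjusted p of the other 9 genes was 0.53.

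Genes with small differences changed sign. With the library total alone SMC1A was at 0.015, STAG1 at 0.048, WAPL at 0.051 and SMC4 at 0.047. On log2(TPM + 1) SMC1A was at 0.013, STAG1 at 0.034, STAG2 at 0.018, WAPL at 0.040, PDS5B at 0.022 and SMC4 at 0.049. On log2(FPKM + 1), with and without the filter, they were at 0.014, 0.035, 0.021, 0.042, 0.023 and 0.052, and on log2(FPKM + 0.1) at 0.022, 0.040, 0.022, 0.043, 0.027 and 0.053. With 1 library left out the range was -0.67 to 0.24 for RAD21, -0.17 to 0.051 for SMC1A, -0.17 to 0.079 for STAG1, -0.50 to 0.41 for STAG2, -0.14 to 0.061 for WAPL and -0.46 to 0.072 for PDS5B. It was -0.045 to 0.31 for MEIKIN, -0.12 to 0.082 for SMC4 and -0.80 to 0.18 for CDK1. CDC20 ranged from 0.11 to 0.40, CDC16 from -0.29 to -0.12, FZR1 from 0.23 to 0.54, NCAPG from -0.17 to -0.076 and SMC2 from -0.33 to -0.17. The log2 STAG2 to STAG1 ratio differed by -0.018 between the temperatures, by -0.27 to 0.30 with 1 library left out and by -0.018 with the replicate block (exact sign-flip test). That of PDS5A to PDS5B differed by -0.27, by -0.048 on the CPM scale and by -0.56 to -0.077 with 1 library left out.

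The median of the loading, acetylation and protection list was 0.061 with the library total and -0.11 to 0.0098 with 1 library left out. That of meiotic cohesin was -0.080 with DESeq2, -0.070 with no filter and -0.045 to 0.19 with 1 library left out. The condensin and SMC5/6 median was -0.063 with the library total, -0.020 on log2(TPM + 1), -0.047 on log2(FPKM + 1), -0.049 on log2(FPKM + 0.1), -0.0063 on FPKM without the filter and -0.17 to -0.0034 with 1 library left out. The securin destruction median was 0.027 with the library total, 0.012 on log2(TPM + 1), 0.020 on log2(FPKM + 1) with and without the filter, 0.022 on log2(FPKM + 0.1) and -0.10 to 0.00028 with 1 library left out. The median over all genes was -0.017 in the main fit, 0.078 with the library total and 0.038 on log2(TPM + 1). It was 0.032 on log2(FPKM + 1), 0.040 on log2(FPKM + 0.1) and 0.016 on log2(FPKM + 1) without the filter. With DESeq2 it was -0.010, with no filter -0.0077 and with 1 library left out -0.024 to 0.0092. The cause of the shifts in these medians was not tested. ESPL1 had no value on the filtered FPKM scales, and FZR1 none on the filtered TPM and FPKM scales, since both lay under the minimum. Low read numbers limit ESPL1 (87 to 182 reads), FZR1 (31 to 70 reads) and REC8 (0 to 9 reads), among other genes of the lists.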
